A study of Homo sapiens with 4 samples.

Results

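The 2 mature arms of the miR-22 hairpin, listed as hsa-miR-22-3p and hsa-miR-22-5p, were taken by name from a table of 826 mature microRNAs (miRNAs). The RNA came from H661, a human lung cancer cell line derived from a large cell carcinoma. The tested cells received 2.5 µM entinostat, which inhibits class I histone deacetylases, and the control cells received its solvent dimethyl sulfoxide (DMSO), each for 8 h. Each treatment gave 2 small RNA libraries, and the design compares miRNA abundance between the treatments. Whether the libraries of a treatment came from separate cultures is not labelled, so each p-value reflects the spread among these 4 libraries, and that spread may be technical only. Totals were 547875 and 753104 miRNA counts with entinostat and 938559 and 561485 with DMSO.

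A miRNA hairpin is cut by the nucleases Drosha and Dicer into a short duplex, and an Argonaute protein keeps mainly one of its arms, the guide. The guide pairs with messenger RNAs mostly through its seed, bases 2 to 8, and lowers their stability and translation. miR-22 is known to repress the mRNA of the histone deacetylase HDAC4, and in blood stem cells that of TET2, an enzyme that oxidizes methylcytosine. No mRNA was measured here.

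The sequences of both arms are shown because each arm was counted under its own name and because the seed decides which other miRNAs could share its targets. They are RefSeq sequences on GRCh38.p14, written 5′ to 3′ with the seed in capitals.
miR-22-3p: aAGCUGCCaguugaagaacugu
miR-22-5p: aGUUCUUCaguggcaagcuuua
Both arms are 22 bases long and begin with A. The 3p arm lies at chr17:1713914-1713935 and the 5p arm at chr17:1713952-1713973, both on the minus strand. Among 2370 mature human names in RefSeq, 0 others carried the seed AGCUGCC of the 3p arm and 0 others the seed GUUCUUC of the 5p arm. One name, miR-2116-5p, matched the 5p arm over bases 2 to 7, and it had no row in the table used here. With no other name of the same seed, the level of each arm stood alone and was not part of a seed family.

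When the arms were folded against each other in silico, 19 base pairs formed, 8 of them G-C, 10 A-U and 1 G-U, with a longest unbroken run of 10 pairs. All 7 seed bases of either arm were paired with the other arm. Of the first 4 bases at the 5′ end, 2 sat in G-C pairs in the 3p arm and 1 in the 5p arm.

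The hairpin gene MIR22 (chr17:1713903-1713987, minus strand, 85 bases; GENCODE release 29, GRCh38) lies inside MIR22HG, a long non-coding RNA gene (chr17:1711493-1717174, minus strand). All 19 annotated MIR22HG transcripts carry the hairpin in an exon. In transcript MIR22HG-201 the hairpin lies within exon 3 of 4, and that exon spans chr17:1713703-1714014. The hairpin therefore sits in the spliced host RNA, unlike the many miRNAs that lie in introns. The count table gave no coordinates, so positions were matched by name.

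Abundance of miR-22-3p was lower in both entinostat libraries than in either DMSO library, but the difference did not pass the test. Its counts were 644 and 753 with entinostat and 1285 and 745 with DMSO. As counts per 1e+06 counts of the library, adjusted for library composition with TMM factors (CPM below), these were 1185 and 993 CPM with entinostat, against 1375 and 1327 CPM with DMSO. The groups did not overlap, as was so, with entinostat lower, in 20.0% of the 401 miRNAs tested. The means were 1089 ± 136.3 CPM with entinostat and 1351 ± 34.1 CPM with DMSO (SD, n = 2 each). The fold of entinostat over DMSO was 0.803 with a 95% interval of 0.673 to 0.958 (log2 fold change -0.32, SE 0.11, unadjusted p = 0.0209 and Benjamini-Hochberg adjusted p = 0.595 in edgeR's quasi-likelihood test over all 401 miRNAs). At that adjusted threshold of 0.05, 0% of tested miRNAs were called in either direction, so neither arm was called. At an unadjusted p under 0.05, 6.73% were seen in either direction and 3.74% were lower. An exact two-sided permutation test over the libraries gave p = 0.333, the smallest that 2 against 2 allows. In such bulk RNA, fewer cells carrying a miRNA and less of it per cell cannot be told apart, and CPM measures a share of the miRNA pool.

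The gap between the entinostat libraries was close in size to the step between the groups. On the log2 scale, entinostat replicate 1 lay 0.26 above entinostat replicate 2 (95% counting interval 0.10 to 0.41), more than counting error gives. The DMSO libraries differed by 0.05 (-0.08 to 0.18), within counting error. Entinostat replicate 1 lay at -0.16 relative to DMSO replicate 2 (-0.32 to -0.00879), a smaller gap than that between the entinostat libraries. Entinostat replicate 2 lay at -0.47 relative to DMSO replicate 1 (-0.60 to -0.34) and at -0.42 relative to DMSO replicate 2. These intervals compare single libraries and not the treatments. Without entinostat replicate 1 the log2 fold change was -0.45 and miR-22-3p was called lower (edgeR adjusted p = 0.0238), as 1 of 3 miRNAs called lower, 0.748% of those tested, and of 6 called in all, 1.50%. Without entinostat replicate 2 it was -0.19 (edgeR adjusted p = 0.833). Whether miR-22-3p was called therefore depended on which entinostat library was used. Each of these fits held 1 entinostat library, so the spread between entinostat libraries was not measured in them. The edgeR likelihood ratio test on all 4 libraries called 4 miRNAs, 0.998%, and neither arm was among them.

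**Figure D1:**
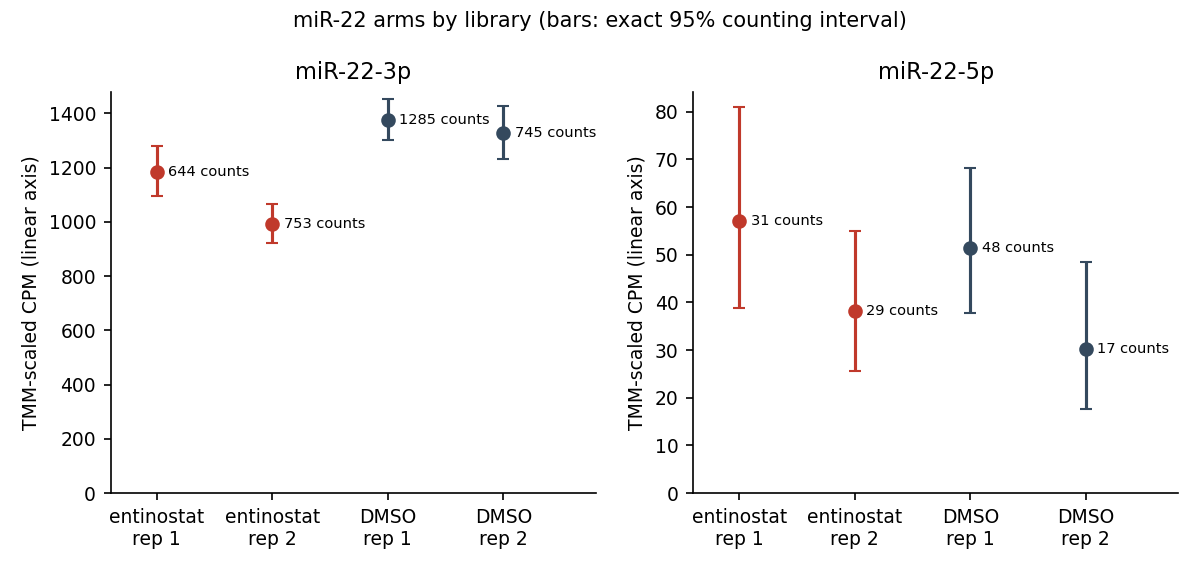
TMM-scaled CPM of miR-22-3p (left) and miR-22-5p (right) in each library, entinostat in red and DMSO in dark blue; points are single libraries labelled with their counts and bars are exact 95% counting intervals. For miR-22-3p both entinostat points (1185 and 993 CPM) lie below both DMSO points (1375 and 1327 CPM), while for miR-22-5p the groups overlap.

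The minor arm miR-22-5p was far rarer and its groups overlapped. Its counts were 31 and 29 with entinostat and 48 and 17 with DMSO. As levels these were 57.1 and 38.2 CPM with entinostat, against 51.4 and 30.3 CPM with DMSO. The highest and the third highest level came from entinostat and the lowest from DMSO replicate 2, whose value rested on 17 counts. The means were 47.6 ± 13.32 CPM with entinostat and 40.8 ± 14.9 CPM with DMSO (SD, n = 2 each; exact two-sided permutation p = 0.667). The log2 fold change was 0.13 with an SE of 0.35 and a 95% interval of -0.66 to 0.92 (edgeR adjusted p = 0.927). On the linear scale the interval ran from 0.632-fold to 1.89-fold, so neither a higher nor a lower level was shown. The sign itself was unstable, at -0.16 without entinostat replicate 1, -0.15 without DMSO replicate 2, 0.42 without entinostat replicate 2 and 0.62 without DMSO replicate 1. Counting error alone gave a coefficient of variation of 14.4 to 24.3% per library for miR-22-5p, against 2.79 to 3.94% for miR-22-3p.

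miR-22-3p was among the more abundant miRNAs of these cells. It took 0.118% and 0.1% of the counts with entinostat and 0.137% and 0.133% with DMSO. Its rank among the 826 names was 88 and 98 with entinostat and 81 and 87 with DMSO. miR-22-5p ranked 278 and 311 with entinostat and 288 and 324 with DMSO. Next above miR-22-3p in mean level stood miR-9-5p, a miRNA best known from neurons, with 1331 and 1262 CPM with entinostat and 1100 and 1188 CPM with DMSO. Its log2 fold change of 0.18 had the opposite sign (edgeR adjusted p = 0.595). Next below was miR-1301-3p, with 1158 and 1097 CPM with entinostat and 1200 and 1170 CPM with DMSO (log2 fold change -0.07, edgeR adjusted p = 0.833). Over all 4 libraries the ranges of miR-22-3p and of both neighbours overlapped, so their order is not set. Around miR-22-5p stood miR-629-3p, at 53.4 and 36.9 CPM with entinostat and 48.2 and 42.7 CPM with DMSO, and miR-942-5p, at 44.2 and 50.1 CPM with entinostat and 43.9 and 33.8 CPM with DMSO, both within its own range.

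The log2 fold change of miR-22-3p was the lowest of the 97 miRNAs with a mean of 1000 CPM or more, whose median was 0.00431. It took rank 2 of these 97 from the low side without DMSO replicate 2 and rank 5 without entinostat replicate 2. In the whole table of 401 it had rank 39 from the low side, since rarer miRNAs scattered more widely. The mean level of miR-22-3p ranked 88 among the 97, near the cut, and its unadjusted p ranked 2. Below the cut, miR-760 had a log2 fold change of -0.44 in the edgeR likelihood ratio test. The SE of miR-22-3p was 0.11, against a median SE of 0.0936 among the 97. For miR-22-5p the SE of 0.35 was somewhat above the median of 0.289 of the 109 tested miRNAs between 25 and 100 CPM, and its log2 fold change had rank 63 of these 109 from the low side.

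**Figure D2:**
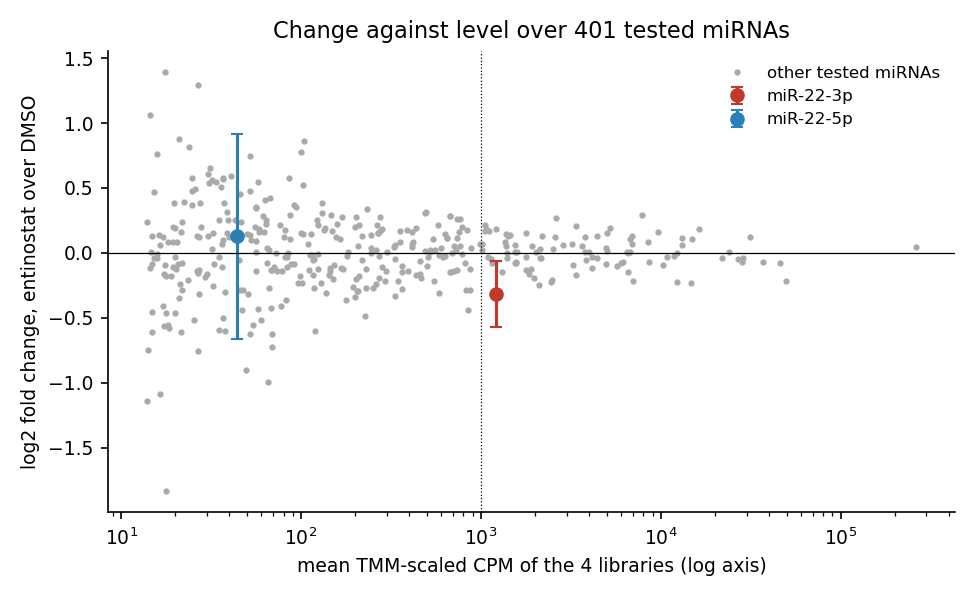
Log2 fold change, entinostat over DMSO, against mean TMM-scaled CPM of the 4 libraries (log axis) for 401 tested miRNAs in grey, with miR-22-3p in red and miR-22-5p in blue and their 95% intervals. Right of the dotted line at 1000 CPM, miR-22-3p (-0.32) is the lowest of 97 points, while miR-22-5p (0.13) lies inside the wide scatter of rare miRNAs.

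In each of the 4 libraries the 3p arm held nearly all miR-22 counts. The 5p arm made up 4.59% of miR-22 counts in entinostat replicate 1 (31 of 675; exact Clopper-Pearson 95% interval 3.14 to 6.46%) and 3.71% in entinostat replicate 2 (29 of 782; 2.50 to 5.28%). It made up 3.60% in DMSO replicate 1 (48 of 1333; 2.67 to 4.75%) and 2.23% in DMSO replicate 2 (17 of 762; 1.305 to 3.55%). The shares of the groups did not overlap, but entinostat replicate 2 and DMSO replicate 1 were almost equal, and all 4 counting intervals shared the range from 3.14 to 3.55%. There were 20.8 and 26.0 counts of miR-22-3p for each count of miR-22-5p with entinostat, against 26.8 and 43.8 with DMSO. The log2 ratio of 5p over 3p averaged -4.54 ± 0.23 with entinostat and -5.10 ± 0.50 with DMSO (SD, n = 2 each; exact two-sided permutation p = 0.333, the smallest possible).

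A ratio within a library does not depend on library scaling. The arm ratio was therefore tested in 1 count model over the 92 hairpins with both arms tested. A hairpin here means a 5p and a 3p row that share a name, and such a name can cover more than 1 gene. The fitted 5p over 3p ratio of miR-22 was 1.36-fold higher with entinostat, with a 95% interval of 0.871 to 2.13 (log2 0.45, SE 0.33; edgeR adjusted p = 0.711). The arms were thus not shown to respond differently. In this model 1.09% of hairpins were called, and groups did not overlap, with entinostat higher, in 18.5%. The 1 called hairpin was let-7b, noted after its values were seen, whose 3p arm had 0 and 10 counts with entinostat and 19 and 21 with DMSO. The 0 in entinostat replicate 1 allowed a 3p share of up to 0.831%. With entinostat replicate 1, DMSO replicate 1 or DMSO replicate 2 left out, 0 hairpins were called, so the call of let-7b rested on these libraries together. The ratio change of miR-22 had rank 9 of 92 from the high side. The log2 change became 0.91 when DMSO replicate 1 was left out and 0.20 when DMSO replicate 2 was, so it was largest with DMSO replicate 2, the library with 17 counts of the 5p arm, as the sole control.

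Across the 92 hairpins, 52 had more counts in the 3p arm and 40 in the 5p arm. The mean log2 ratio of miR-22 was -4.82, against a median size of 3.41 in either direction, and it ranked 29 of 92 in imbalance. Hairpins whose rarer arm failed the count filter are outside these 92, so the rank does not cover them. An example is miR-615, with 12695 counts of the 3p arm and 2 of the 5p arm in DMSO replicate 1. The hairpin of nearest imbalance was miR-92b, whose 5p share was 2.41 and 2.93% with entinostat and 3.21 and 3.37% with DMSO. There the groups also did not overlap, but the share was lower with entinostat, as in 16.3% of hairpins (log2 ratio change -0.30, edgeR adjusted p = 0.615).

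**Figure D3:**
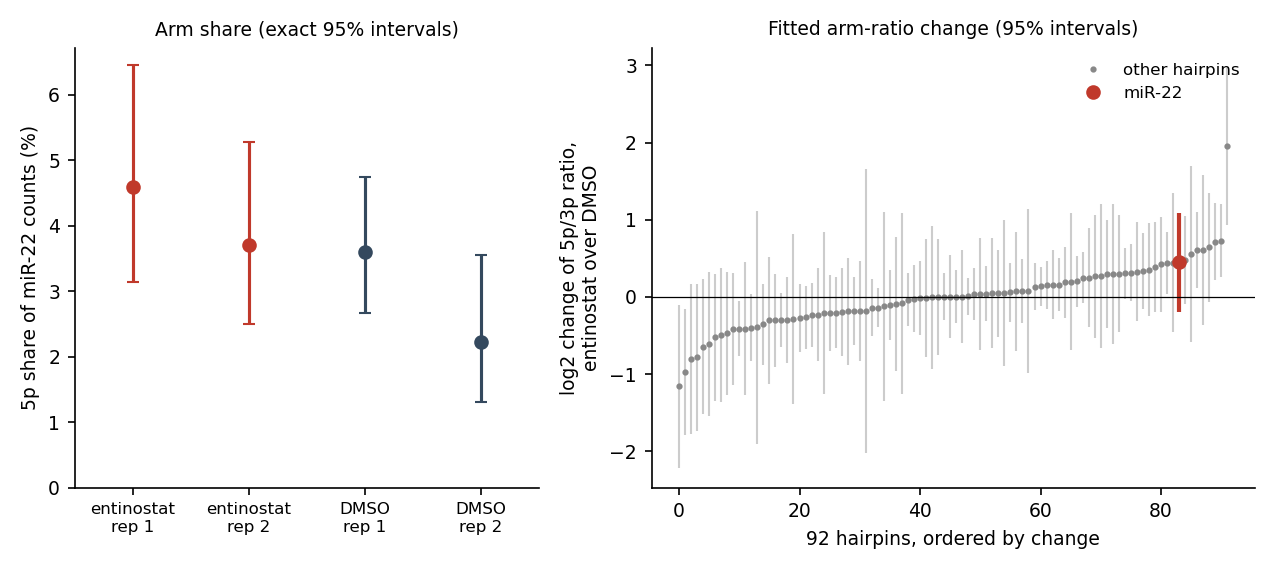
Left, the 5p share of miR-22 counts in each library with exact 95% intervals, entinostat in red and DMSO in dark blue. Right, the fitted log2 change of the 5p over 3p ratio, entinostat over DMSO, for 92 hairpins ordered by size with 95% intervals; the interval of miR-22 (red, 0.45) spans 0.

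The miRNAs whose profile over the 4 libraries was nearest to that of miR-22-3p were sought among the 236 others with a mean of 100 CPM or more. Likeness was the root mean square distance of log2 CPM values, each less its own mean, over 4 libraries that share 2 groups. The nearest were miR-543 of the imprinted 14q32 region (distance 0.04) and miR-615-3p of the HOXC region (0.05), followed by miR-484, miR-671-3p and miR-16-2-3p (0.06, 0.07 and 0.07). The median distance was 0.22. Levels of miR-543 were 2126 and 1716 CPM with entinostat and 2266 and 2287 CPM with DMSO. Levels of miR-615-3p were 12421 and 10227 CPM with entinostat and 13587 and 12823 CPM with DMSO. These 5 were chosen for likeness in these same libraries, so what they share with miR-22-3p follows in part from that choice. All 5 had the low value in entinostat replicate 2, and their log2 fold changes ran from -0.29 to -0.19. None of the 5 was called (edgeR adjusted p = 0.595 to 0.640), and miR-543 was, like miR-22-3p, among the miRNAs called lower without entinostat replicate 1 (edgeR adjusted p = 0.0238).

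Profiles near that of miR-22-5p were less close. The nearest of 237 were miR-3923 (0.18) and miR-487b-3p (0.21), then miR-642a-5p, miR-374a-5p and miR-106b-5p (0.22, 0.25 and 0.27), against a median of 0.38. Levels of miR-3923 were 401.3 and 274.2 CPM with entinostat and 356.4 and 285.0 CPM with DMSO, so its groups overlapped as those of miR-22-5p did.

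**Figure D4:**
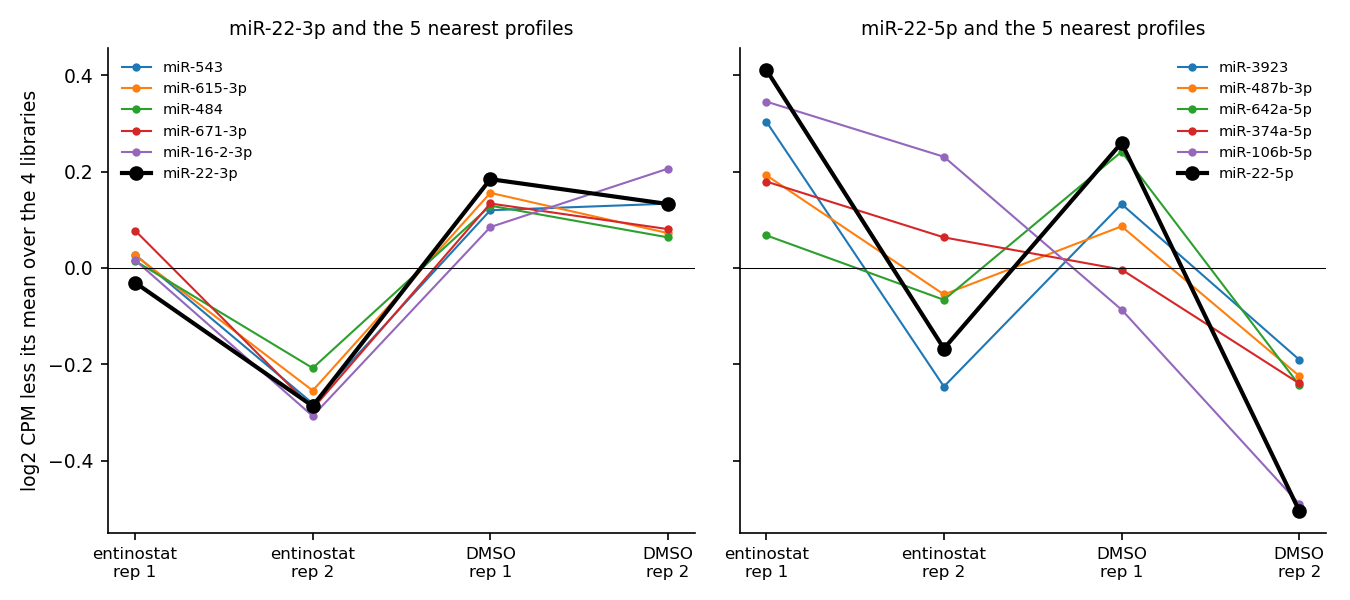
Log2 CPM less its mean over the 4 libraries for miR-22-3p (left, black) and miR-22-5p (right, black) with the 5 miRNAs of nearest profile in colour; lines join the values of one miRNA and the libraries have no order within a treatment. The profiles near miR-22-3p, chosen for likeness to it, share its low point in entinostat replicate 2, and miR-22-5p is lowest in DMSO replicate 2.

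Other miRNAs are also reported to act on histone deacetylase mRNAs, and these were followed as a list. Of 13 miRNAs reported to repress a histone deacetylase mRNA, 11 had a row and 7 were tested, miR-22-3p included. Among the other 6, 0 were called, 5 lay above 0 and 1 below, with a median log2 fold change of 0.27, against 0.00466 over all 401 tested, of which 208 lay above 0 and 193 below. Without entinostat replicate 2, 3 lay above 0 and 3 below, with a median of 0.10. The one below 0 was miR-125a-5p, at 13479 ± 562.8 CPM with entinostat and 15822 ± 1207 CPM with DMSO (SD, n = 2; log2 fold change -0.23, edgeR adjusted p = 0.595). miR-145-5p lay at the other end with 1.40 (edgeR adjusted p = 0.595), from 9 and 26 counts with entinostat and 11 and 4 with DMSO. Also above 0, miR-140-5p lay at 0.37 (SE 0.42) from 12 and 26 counts with entinostat and 25 and 9 with DMSO. For miR-155-5p the value was 0.54, from 39 and 48 counts with entinostat and 38 and 30 with DMSO. With 324 to 1028 counts per library, miR-9-5p and miR-365a-3p lay at only 0.18 and 0.12. miR-22-3p was thus below 0 while most of the other tested members lay above it, and no member passed the test.

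The other miRNAs of 17p13.3 followed here were miR-132, whose hairpin lies 335.9 kb from that of miR-22, and miR-212. Of their 4 arms, 0 were called, and 2 lay above 0 and 2 below (median log2 fold change 0.05). Counts were low for miR-212-3p. miR-212-3p had 29.9 ± 0.614 CPM with entinostat and 20.0 ± 0.524 CPM with DMSO (SD, n = 2; log2 fold change 0.58, 95% interval -0.26 to 1.41, edgeR adjusted p = 0.638). These values rested on 16 and 23 counts with entinostat and 19 and 11 with DMSO, so the small SDs do not show a precise level. For miR-132-3p and miR-132-5p the log2 fold changes were 0.12 and -0.12 (edgeR adjusted p = 0.777 and 0.861). With upper quartile factors 3 of the 4 arms lay above 0.

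Other miRNAs with a non-coding host transcript named after them were set beside miR-22. Of these 24 names, 21 were tested. Among the 19 that were not arms of miR-22, 17 lay above 0 and 2 below (median log2 fold change 0.13), with 0 called. Over all 401 tested miRNAs, 208 lay above 0 and 193 below. The list holds chosen arms and not every arm of each host, and several members share a host transcript. Its split therefore covers the listed arms only. Among the 19, the count above 0 ran from 14 without entinostat replicate 2 to 18 without DMSO replicate 2. The lowest p among the 19 belonged to miR-23a-3p, of MIR23AHG, at 8694 ± 1305 CPM with entinostat and 7126 ± 661.4 CPM with DMSO (log2 fold change 0.29), followed by the hypoxia-induced miR-210-3p, at 301.3 ± 4.47 CPM with entinostat and 249.9 ± 6.81 CPM with DMSO (SD, n = 2; log2 fold change 0.27; edgeR adjusted p = 0.595 for each).

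Markers of several cell types were followed, with their sums given per 1e+06 counts of the library and not adjusted with TMM factors. The epithelial miRNAs together came to 76.7 and 59.8 with entinostat and 56.5 and 41.0 with DMSO on that unadjusted scale. These sums came from 4 of 7 names with a row, and miR-200a-3p, miR-141-3p and miR-429 had none. The 2 tested members went opposite ways. miR-200c-3p had 23 and 35 counts with entinostat and 31 and 14 with DMSO (log2 fold change 0.57). miR-203a-3p had 10 and 6 counts with entinostat and 19 and 7 with DMSO (log2 fold change -0.46). Of 7 blood cell miRNAs 2 had a row, led by miR-486-5p with 102 and 183 counts with entinostat and 216 and 122 with DMSO. The endothelial miR-126-3p was more abundant than miR-22-3p, at a TMM-adjusted 1969 ± 388.8 CPM with entinostat and 1899 ± 139.0 CPM with DMSO (SD, n = 2). Muscle miRNAs summed to at most 12.8 unadjusted CPM in any library, and the liver miRNA miR-122-5p had 5 counts in DMSO replicate 1 and 0 in the others. Their part in the miR-22 values was not tested.

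**Figure D5:**
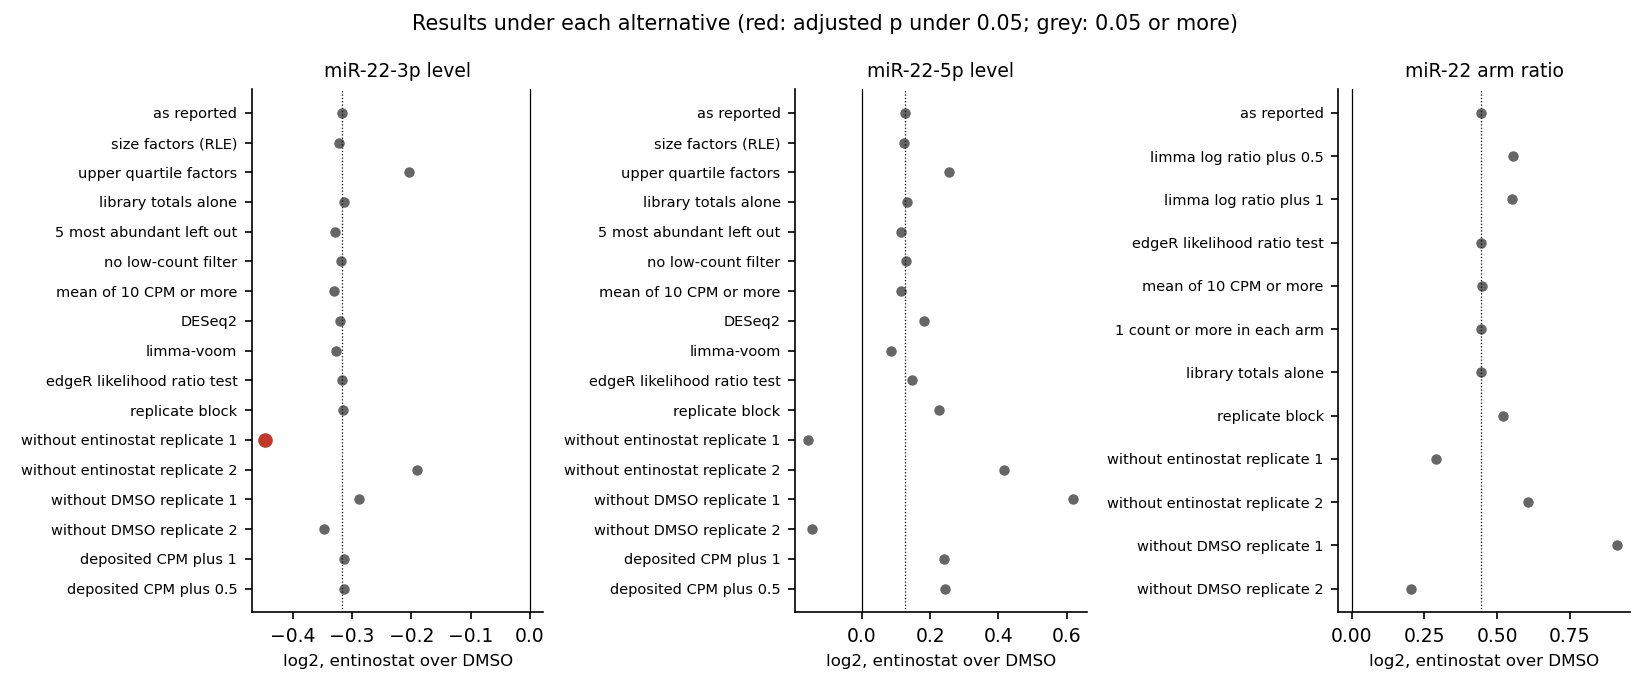
Log2 fold change of miR-22-3p (left) and miR-22-5p (middle) and log2 change of the 5p over 3p ratio (right), entinostat over DMSO, under each alternative setting; the dotted line marks the value as reported, the solid line 0, and red an adjusted p under 0.05. miR-22-3p stays below 0 in each and is called in 1 of them, while miR-22-5p changes sign when entinostat replicate 1 or DMSO replicate 2 is left out.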

How the data were processed

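Small RNA of H661 cells was sequenced by the submitters from 1 µg of total RNA taken with TRIzol and made into libraries with New England Biolabs reagents, per the labels' protocols. Adapter ligation and PCR can recover sequences unequally, and with no molecular identifiers named, intervals from counts cover counting error only. The submitters' processing notes name bcl2fastq 2.18. Aligner, counting tool, miRNA annotation and genome build: not given in the sources used here. The counts deposited by the authors are unnormalized whole numbers, one per mature name and library. The CPM values deposited by the authors equal the count over the column total times 1e+06, within 0.0001.

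Groups and replicate numbers came from sample titles. Counts were TMM-scaled, filtered with filterByExpr (minimum count 10, minimum total 15; 401 of 826 names kept, both arms among them) and tested with edgeR 4.0.16 in R 4.3.3, treatment as the only term, over all names kept. Adjusted p-values are Benjamini-Hochberg, called under 0.05. Arm ratios used a table of 92 hairpins by 2 arms in each of 4 libraries, with terms for library, arm and arm by treatment. Both tests were checked on simulated data. Replicate libraries differed by more than sampling noise (chi-square per degree of freedom 9.01 with entinostat and 6.95 with DMSO). Folding used ViennaRNA 2.7.2. Alternatives were other scalings, filters, tools (DESeq2 1.42.0, limma 3.58.1), pseudocounts, a replicate block and each library left out. Named miRNAs were both arms, their neighbours in level, the 5 nearest profiles, and the 3 members of lowest p in each list. Some names were chosen outside this rule, after their values were seen. These were members of the marker lists, further members of the histone deacetylase list, hairpins named for arm imbalance, and called miRNAs and hairpins. The members and lists were chosen with earlier results of these data known. One list of miRNAs is not reported here.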

Additional observations from a re-analysis of the deposited data

How the results depend on the processing

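The log2 fold change of miR-22-3p lay below 0 in all 16 alternatives, from -0.45 to -0.19, and these ends were the values without entinostat replicate 1 and without entinostat replicate 2. It was called only without entinostat replicate 1, and its edgeR, DESeq2 or limma adjusted p ran from 0.0238 to 0.999. miR-22-5p ran from -0.16 to 0.62 when single libraries were left out and turned negative without entinostat replicate 1 (-0.16) and without DMSO replicate 2 (-0.15). The arm ratio stayed above 0 in all 11 alternatives and ran from 0.20 to 0.91 with single libraries left out. With upper quartile factors the median over all tested miRNAs became 0.12, and miR-22-3p lay at -0.20 there, or -0.32 relative to that median. The causes were not tested.

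The number of called miRNAs was 0 as reported, 4 with the edgeR likelihood ratio test (2 higher, miR-148a-5p and miR-195-3p, and 2 lower, miR-760 and miR-1914-5p) and 0 to 6 with single libraries left out (0 to 3 higher and 0 to 3 lower). At an unadjusted p under 0.05 the quasi-likelihood test gave 27. Called hairpins numbered 1 as reported, 0 with limma on log ratios plus 0.5 or plus 1, 3 with the likelihood ratio test, 0 with hairpins of 1 count or more in each arm, and 0 to 1 with single libraries left out. Where a library was left out, the lone sample of its group was assumed to vary like the others.

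Replicate numbers share only a number in the labels. The replicate block gave -0.32 for miR-22-3p, 0.23 for miR-22-5p and 0.52 for the arm ratio, with 0 called miRNAs and 0 called hairpins. Deviations of same-numbered libraries correlated at -0.13 over 237 miRNAs. With the numbers crossed, an alternative chosen after seeing the data, 0 miRNAs and 0 hairpins were called. miR-22-5p had 17 to 48 counts per library, so its values carry the wider counting error of the 2 arms.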
